A study of Caenorhabditis elegans with 2 samples.

Results

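Reproducible AHA-1 regions just below the reporting threshold were taken from a chromatin immunoprecipitation sequencing (ChIP-seq) experiment on L1 larvae of Caenorhabditis elegans. They numbered 260 of the 30000 regions in the authors' pooled list on the ce11 assembly. A region counted when it was missing from the authors' thresholded list of 530 peaks, which was kept by the irreproducible discovery rate (IDR), and overlapped by at least 1 bp one of the 2000 rows of highest signal in both replicate lists. The members were therefore selected on measured signal, and their signals and ranks are given below as a description without a test. Position and DNA sequence were not used in the choice and were tested. All 260 regions were 316 bp wide.

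The worm counterpart of mammalian ARNT, AHA-1 belongs to the basic helix-loop-helix PAS (bHLH-PAS) proteins and binds DNA as a dimer with relatives such as HIF-1, the hypoxia factor, or AHR-1, the dioxin receptor's ortholog. In dimers of this family the ARNT side is known, from mammals, to contact GTG, and the partner sets the bases before it: HIF dimers bind ACGTG or GCGTG, and AHR dimers bind GCGTG. The palindrome CACGTG is the E-box bound by ARNT homodimers in vitro and by factors of the MYC, MAX and TFEB families, and CANNTG is the general E-box.

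Both replicates were whole larvae of mixed sex from strain OP124, with the mutant allele unc-119(ed3) on chromosome III and the integrated transgene wgIs124, which expresses AHA-1 fused to eGFP. The only group was these 2 biological replicates, so no comparison of conditions exists, and the control sample was not analysed here. The labels describe the eGFP fusion as the target and also give aha-1 as the antibody, and they do not state how the fusion's level compares with the native protein. Whole animals were used, so binding in a few cells cannot be told apart from weaker binding in many.

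The DNA under 12 of the summits is shown because it carries the bHLH-PAS and E-box words whose shares are tested further on. They are separate members (those not beside a stronger region, defined below) of high pooled signal with each word, among the windows open to printing, on the plus strand of WBcel235 (ce11) from the RefSeq genome, 101 bases centred on the summit, 5′ to 3′. Capitals mark every GCGTG and ACGTG on either strand, read as CACGC and CACGT where the word lies on the minus strand, and hence every CACGTG, which holds ACGTG on both strands. The first 4 hold CACGTG, the next 4 GCGTG, the next 3 ACGTG outside a palindrome, and the last both GCGTG and ACGTG.
adh-1 (chrV:11886095-11886195): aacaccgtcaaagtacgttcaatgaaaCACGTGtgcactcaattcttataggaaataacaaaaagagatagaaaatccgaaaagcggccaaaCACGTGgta
CC8.2 (chrIV:3654318-3654418): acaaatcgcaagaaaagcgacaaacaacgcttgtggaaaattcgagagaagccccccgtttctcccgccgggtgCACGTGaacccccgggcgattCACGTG
F17H10.2 (chrX:13113555-13113655): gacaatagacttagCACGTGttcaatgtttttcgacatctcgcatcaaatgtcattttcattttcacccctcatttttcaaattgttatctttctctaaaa
idh-1 (chrIV:9442272-9442372): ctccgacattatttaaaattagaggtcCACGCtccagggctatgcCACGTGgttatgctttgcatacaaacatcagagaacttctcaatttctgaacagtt
ndub-8 (chrII:13872627-13872727): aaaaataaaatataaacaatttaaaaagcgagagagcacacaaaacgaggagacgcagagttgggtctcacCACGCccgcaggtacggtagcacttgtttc
sca-1 (chrIII:10819857-10819957): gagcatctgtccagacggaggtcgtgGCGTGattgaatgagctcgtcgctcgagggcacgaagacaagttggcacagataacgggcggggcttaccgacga
T07A9.15 (chrIV:393527-393627): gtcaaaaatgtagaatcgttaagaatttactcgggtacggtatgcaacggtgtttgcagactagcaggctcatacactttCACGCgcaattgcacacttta
sluh-7 (chrV:10356086-10356186): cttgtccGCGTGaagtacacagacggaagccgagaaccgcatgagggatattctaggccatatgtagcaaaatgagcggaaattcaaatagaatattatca
Y41D4A.4 (chrIV:1745788-1745888): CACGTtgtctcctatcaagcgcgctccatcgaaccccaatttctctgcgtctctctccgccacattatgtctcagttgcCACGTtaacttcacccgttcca
aldo-1 (chrIII:13565126-13565226): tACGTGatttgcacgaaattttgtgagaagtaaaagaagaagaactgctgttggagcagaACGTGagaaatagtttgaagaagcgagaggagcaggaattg
col-185 (chrX:13514562-13514662): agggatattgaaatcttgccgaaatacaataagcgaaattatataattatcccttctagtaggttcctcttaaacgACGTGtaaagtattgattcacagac
pan-1 (chrIII:4560700-4560800): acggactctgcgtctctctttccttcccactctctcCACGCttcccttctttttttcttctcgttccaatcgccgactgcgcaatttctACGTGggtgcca

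Each name is that of the gene with the nearest protein-coding start. The windows at adh-1, an alcohol dehydrogenase gene, and at CC8.2 held 2 copies of CACGTG each. That at idh-1, an isocitrate dehydrogenase gene, held CACGTG and, upstream of it, GCGTG on the minus strand. At adh-1, CC8.2 and idh-1 the summit was intergenic, 2103, 5684 and 1215 bp upstream of the start, so these palindromes lay outside the promoter windows used below. A promoter window ran from 1000 bp upstream to 200 bp downstream of any annotated transcript start. The summits at F17H10.2, ndub-8, T07A9.15, sluh-7, Y41D4A.4 and aldo-1 were inside such windows, and those at sca-1, col-185 and pan-1 outside.

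Another word, GAGAGA, was found under more summits than GCGTG or ACGTG taken singly and under fewer than E-boxes other than CACGTG. Members of high signal with it and without GCGTG or ACGTG are shown for comparison, a choice made after their values were seen, with capitals marking GAGAGA or its complement TCTCTC.
drap-1 (chrV:9731295-9731395): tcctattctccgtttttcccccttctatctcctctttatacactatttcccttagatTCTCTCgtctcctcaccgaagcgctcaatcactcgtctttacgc
ddx-17 (chrV:14012127-14012227): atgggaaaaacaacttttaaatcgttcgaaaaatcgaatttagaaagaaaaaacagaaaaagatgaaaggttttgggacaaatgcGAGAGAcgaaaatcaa
ecps-1 (chrIII:10460713-10460813): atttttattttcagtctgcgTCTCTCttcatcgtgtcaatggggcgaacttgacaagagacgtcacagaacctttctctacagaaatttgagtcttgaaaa
daf-14 (chrIV:10252499-10252599): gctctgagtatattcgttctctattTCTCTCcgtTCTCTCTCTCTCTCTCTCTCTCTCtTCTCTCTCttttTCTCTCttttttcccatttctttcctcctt

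At drap-1, which encodes a subunit of a transcriptional corepressor, and at ddx-17, a DEAD-box RNA helicase gene, the word occurred once. The window at daf-14, a Smad gene of the dauer pathway, was in an intron and held it in a long CT repeat. Among the 260 members, 68 held GAGAGA and 7 of these held a GA or CT repeat of 12 bp or more, the longest being 44 bp.

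The pooled signal of the members ran from 2.92 to 18.3, with a median of 13.8, a quartile range of 9.41 to 16.1 and a median rank of 855. The signal is the authors' deposited value per region, whose scale is not stated, and it serves here to rank regions within a list. The lowest thresholded peak had 18.35 at rank 530, the next regions at ranks 531 and 532 both had 18.34 and were not members, and the first member followed at rank 533 with 18.3. At the replicate cuts, row 2000 had a signal of 6.52795 against 6.5277 in the next row for replicate 1, and 4.75911 against 4.7587 for replicate 2. The region of snb-1, the synaptobrevin gene, was on the last row taken of replicate 2, and that of col-185 at rank 1986 was the nearest to the cut of replicate 1. Regions on both sides of each cut were thus of nearly equal signal.

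The label held for most members and not for all. Ranks 531 to 1000 held 155 members, ranks 1001 to 2000 held 46, and 59 ranked below 2000. Of the 470 regions at ranks 531 to 1000, 33% were members, 47.9% were among the strongest rows of replicate 1 only, 16.4% of replicate 2 only and 2.77% of neither. Most members that ranked lower were not separate sites: 67 of the 260 touched a replicate row that a stronger pooled region touched too. Of these, 37 overlapped a thresholded peak, with summits 199 to 276 bp from its summit and a median pooled signal of 6.61. The other 30 stood beside another stronger region, itself a member in 26 cases, and had a median pooled signal of 4.39. The remaining 193 members were the strongest pooled region at both of their replicate rows, with a median signal of 14.6, and 182 of them ranked within 2000. This division was made after the data were seen. Results below are for all 260 members unless the 193 or another subset are named.

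**Figure D1:**
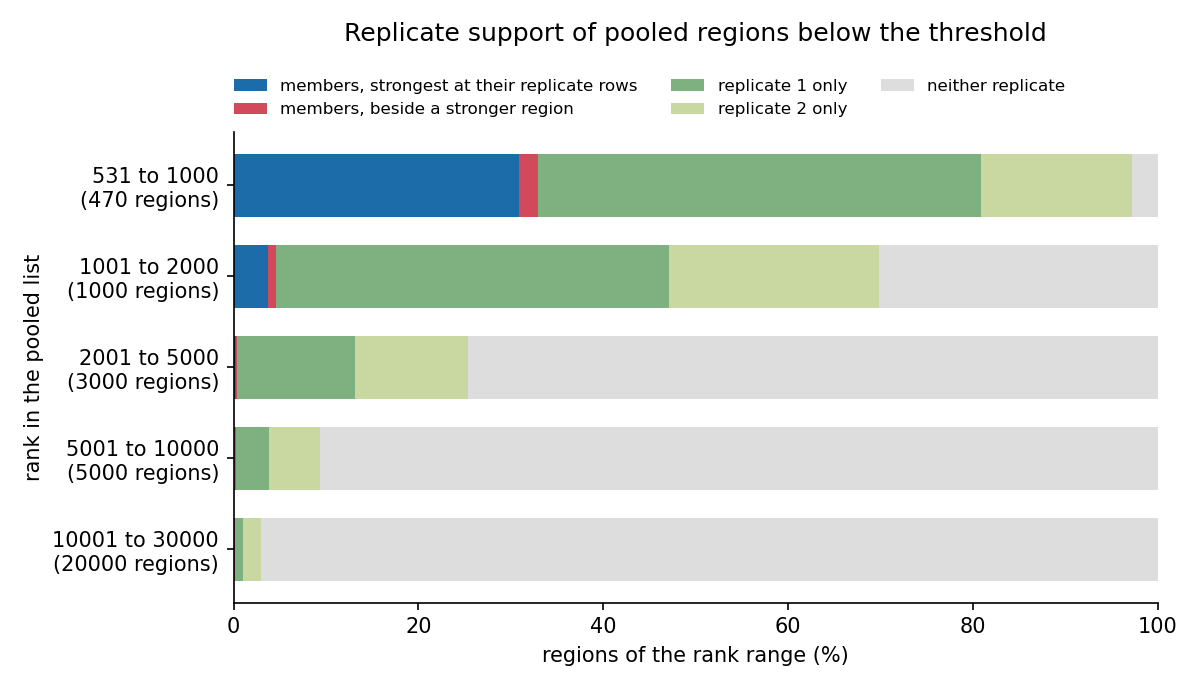
Share of pooled regions below the threshold, by range of pooled rank (vertical axis), that were members, among the strongest 2000 rows of replicate 1 or replicate 2 only, or of neither (horizontal axis, percent). Members made up 33% of ranks 531 to 1000, 4.6% of ranks 1001 to 2000 and at most 0.4% of any lower range.

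In the replicates, the strongest row at a member had a median signal of 9.14 in replicate 1, with a range of 6.55 to 36.8, and of 6.24 in replicate 2, with a range of 4.76 to 21.2. The highest values in both came from the regions beside thresholded peaks, which shared a row of at least 1 replicate with the peak. Their median was 17.0 in replicate 1 and 9.83 in replicate 2. Summits of these rows lay a median of 203 bp from the member summit in replicate 1 and 195 bp in replicate 2. The lowest distances were 114 and 6 bp, so not every row need be that of the peak. Among the 193 separate members the medians were 8.80 and 6.01. Over these 193 the signals of the replicates barely ranked together, with a Spearman correlation of 0.0961 across regions, which share their libraries and were chosen on both signals. Only 3 of the 193 were within the strongest 530 rows of both replicates, 12 within those of replicate 1 and 41 within those of replicate 2. The replicate summits lay a median of 79.0 bp apart at the separate members and 29.0 bp apart at thresholded peaks with a summit in both replicates. Not every thresholded peak met the replicate rule set for members. Of the 530, 445 overlapped the rows taken from both replicates, 526 those from replicate 1 and 449 those from replicate 2.

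**Figure D2:**
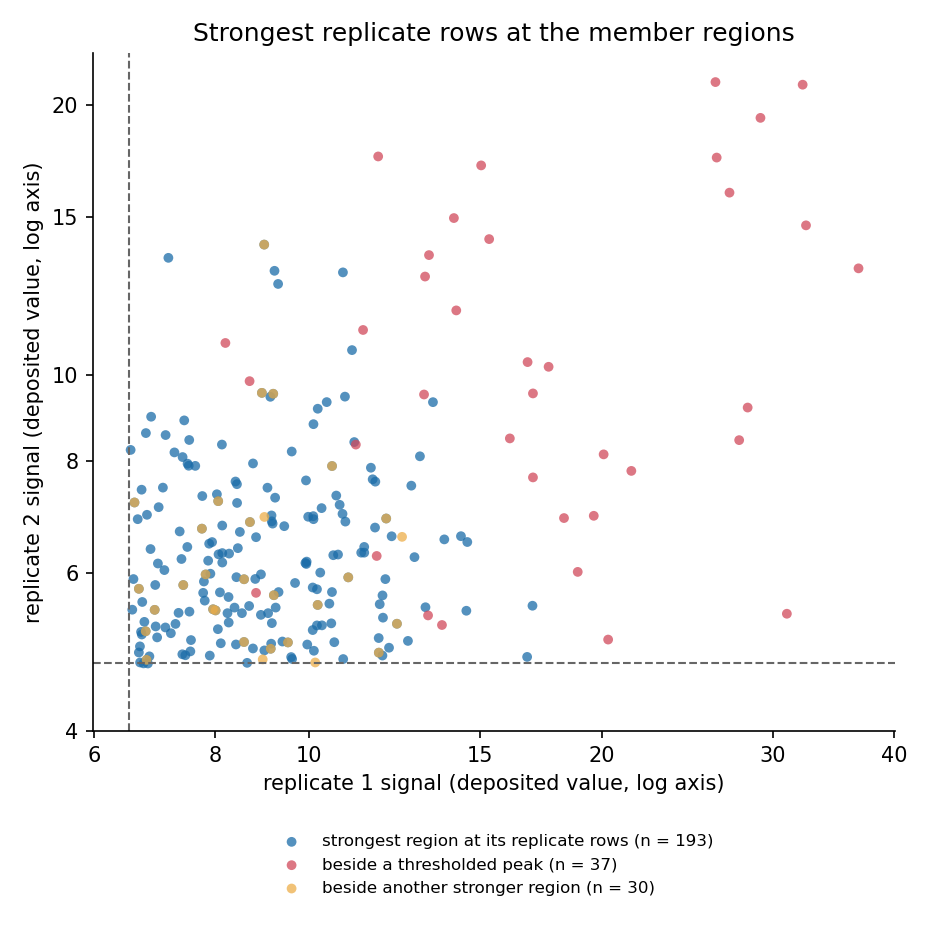
Signal of the strongest overlapping row in replicate 1 (horizontal, log axis) and replicate 2 (vertical, log axis) for each of the 260 members, coloured by their relation to stronger pooled regions. Dashed lines mark row 2000 of each list. The 37 members beside thresholded peaks reach 36.8 and 21.2, and the 193 separate members stay at or below 17.0 in replicate 1 and 13.97 in replicate 2.

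Most members lay in promoter windows as defined above. The summit fell in a protein-coding promoter window at 156 of 260 (60.0%, 95% interval 53.8 to 66.0%), in intergenic sequence outside these windows at 60 (23.1%), in an intron at 36 (13.8%), in a non-coding gene or pseudogene at 4, in a coding exon at 3 and in a UTR at 1. Intervals are exact (Clopper-Pearson) over regions and do not cover variation between animals. The share depends on the window, and a narrower one gave a smaller share, listed with the alternatives below. The promoter share over all pooled regions is not given here. In the promoters, summits were a median of 208.5 bp upstream of the start, with quartiles of 386 and 106 bp, and 139 of 156 were upstream. At 58 of the 156 the summit lay in the windows of more than 1 protein-coding gene. The members outside promoters were a median of 2135 bp from the nearest protein-coding start.

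**Figure D3:**
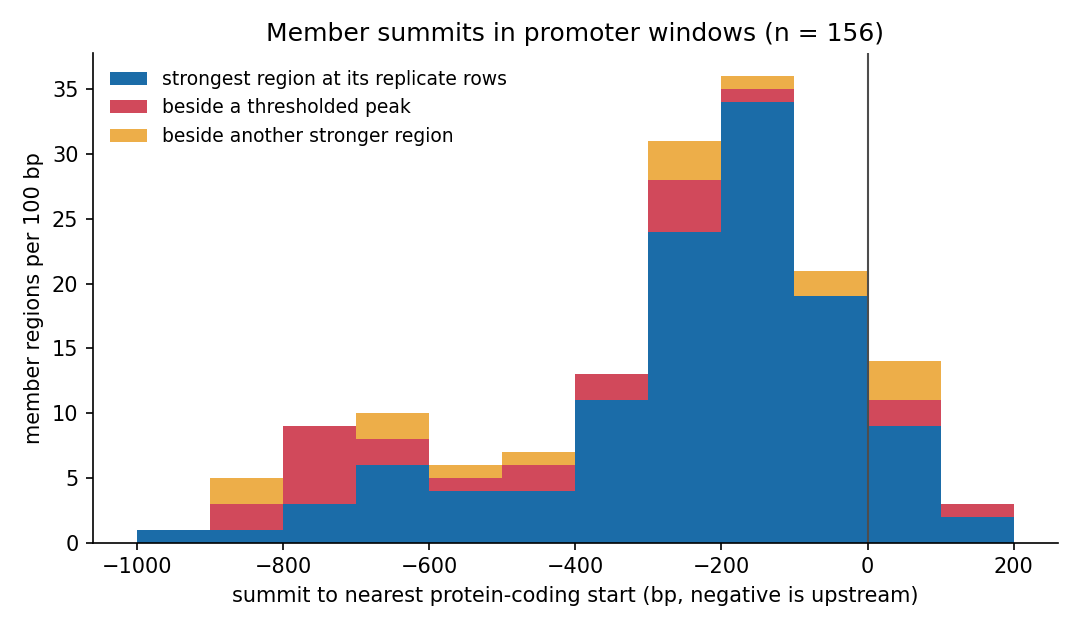
Number of member regions (vertical axis) by distance of the summit from the nearest protein-coding start whose window holds it, in bins of 100 bp (horizontal axis, negative is upstream), for the 156 members in promoter windows. The separate members have a median of -183.5 bp and those beside thresholded peaks of -461 bp.

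The promoter share of the members lay between those of the other classes. It was 60.0% in members and 71.1% in the 530 thresholded peaks, a difference of 11.1 percentage points (odds ratio 0.609, adjusted p = 0.00888, two-sided Fisher's exact test over 11 features and both comparisons, 22 tests). In the 2715 regions among the strongest rows of 1 replicate only it was 43.6% (odds ratio 1.94, exact test, adjusted p = 4.87e-06). In the 193 separate members the promoter share was 61.1% (exact test against thresholded peaks, adjusted p = 0.0366). Members were intergenic more often than thresholded peaks, at 23.1% against 14.7% (exact test, adjusted p = 0.0160), and were in coding exons less often than regions of 1 replicate, at 1.15% against 9.58% (adjusted p = 1.55e-06). The latter class was uneven, with coding exons at 5.04% in regions of replicate 1 only and 14.2% in those of replicate 2 only. Introns held 13.8% of members and 20% of regions of 1 replicate (exact test, adjusted p = 0.0378), and the share against thresholded peaks, 9.06%, missed the threshold (adjusted p = 0.0955). The X chromosome held 16.5% of members, 17.2% of thresholded peaks and 19.3% of the others, and neither difference passed (exact test, adjusted p = 0.920 and 0.471). The classes differ in pooled signal by construction, with medians of 26.9, 13.8 and 7.52, and its part in these differences was not tested. The promoter difference from thresholded peaks was negative under every alternative run, from -30.6 to -6.15 percentage points. It missed the threshold under 4 of 13, among them the 130 members of higher signal (-8.06 points, exact test, adjusted p = 0.195).

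The bHLH words were more frequent at member summits than beside them. Within 50 bp of the summit, ACGTG, the HIF-type core, was found in 18.8% of members, against 7.31% in a window of the same width 400 bp below the summit coordinate (42 members at the summit only and 12 in the flank only, adjusted p = 0.000156, two-sided exact McNemar test over 6 words). GCGTG, labelled AHR-type core in the plot of shares, was found in 15.8% against 6.92% (exact test, adjusted p = 0.00329). The palindromic E-box CACGTG, which is counted within ACGTG too, was found in 7.31% against 2.69% (exact test, adjusted p = 0.0203), and E-boxes other than CACGTG in 37.7% against 25.4% (adjusted p = 0.00329). The GA repeat word GAGAGA showed the widest gap of the 6, 26.2% against 7.69% (exact test, adjusted p = 1.39e-07), and the GATA-factor word WGATAR, with W for A or T and R for A or G, did not differ past the threshold, at 21.5% against 24.2% (adjusted p = 0.4999). Over all 30000 pooled regions the summit shares were 9.23% for ACGTG, 6.83% for GCGTG, 1.93% for CACGTG, 30.9% for other E-boxes, 19.97% for WGATAR and 7.78% for GAGAGA. GC content moved with the summits, with a median of 43.6% at member summits and 36.6% in their flanks, and its part in these results was not tested. In the 193 separate members CACGTG missed the threshold (7.77% against 3.11%, exact test, adjusted p = 0.0589). GCGTG did so in the promoter members alone (15.4% at the summit, exact test, adjusted p = 0.0642) and in those outside promoters (16.3%, adjusted p = 0.0586). Both subsets hold fewer regions than all members, whose share was 15.8%, and the part of their size was not tested. Over 13 alternatives, CACGTG and other E-boxes kept direction and side of the threshold against the flank in 7 each. GCGTG kept both in 9, ACGTG in 11 and GAGAGA in 13.

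Between classes, GCGTG and WGATAR were the words whose shares differed past the threshold between members and thresholded peaks. GCGTG was at 15.8% of member summits and 27.2% of thresholded summits (odds ratio 0.502, adjusted p = 0.00185, Fisher's exact test). The shares of ACGTG were 18.8% and 19.8% (exact test, adjusted p = 0.896), with an odds ratio of 0.940, and those of CACGTG 7.31% and 4.72% (adjusted p = 0.220). WGATAR was more frequent in members, at 21.5% against 12.8% (exact test, adjusted p = 0.00888), a share close to the 19.97% of all pooled regions. In the same exact test with replicate rows required to cover at least 50% of the pooled region, both differences missed the threshold (GCGTG adjusted p = 0.0633, WGATAR adjusted p = 0.0998). In the 193 separate members both passed, with GCGTG at 17.1% and WGATAR at 20.7% (exact test, adjusted p = 0.0332 and 0.0366). Against regions of 1 replicate, members held more ACGTG (18.8% against 13.04%, exact test, adjusted p = 0.0324), more CACGTG (7.31% against 3.54%, odds ratio 2.15, adjusted p = 0.0166) and more GAGAGA (26.2% against 14.5%, odds ratio 2.08, adjusted p = 2.85e-05). Within that class GAGAGA was at 18.7% of regions of replicate 1 only and 10.3% of those of replicate 2 only. The GCGTG share against that class, 12.1%, did not differ past the threshold (exact test, adjusted p = 0.158). Over 11 alternatives, the ACGTG and CACGTG differences from that class kept direction and side of the threshold in 7 each. They ranged from -2.51 to 8.29 and from -0.995 to 5.85 percentage points. The GAGAGA difference kept both in 10, from 6.15 to 17.6 points. ACGTG and CACGTG are not separate results here, because CACGTG is counted within ACGTG. Of the 49 members with ACGTG, 19 held CACGTG. The same held for 96 of 354 such regions of 1 replicate and for 25 of 105 such thresholded peaks. Windows with ACGTG and no CACGTG were not tested. Median summit GC was 49.5% in thresholded peaks, 43.6% in members and 39.6% in regions of 1 replicate, and its part was not tested.

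**Figure D4:**
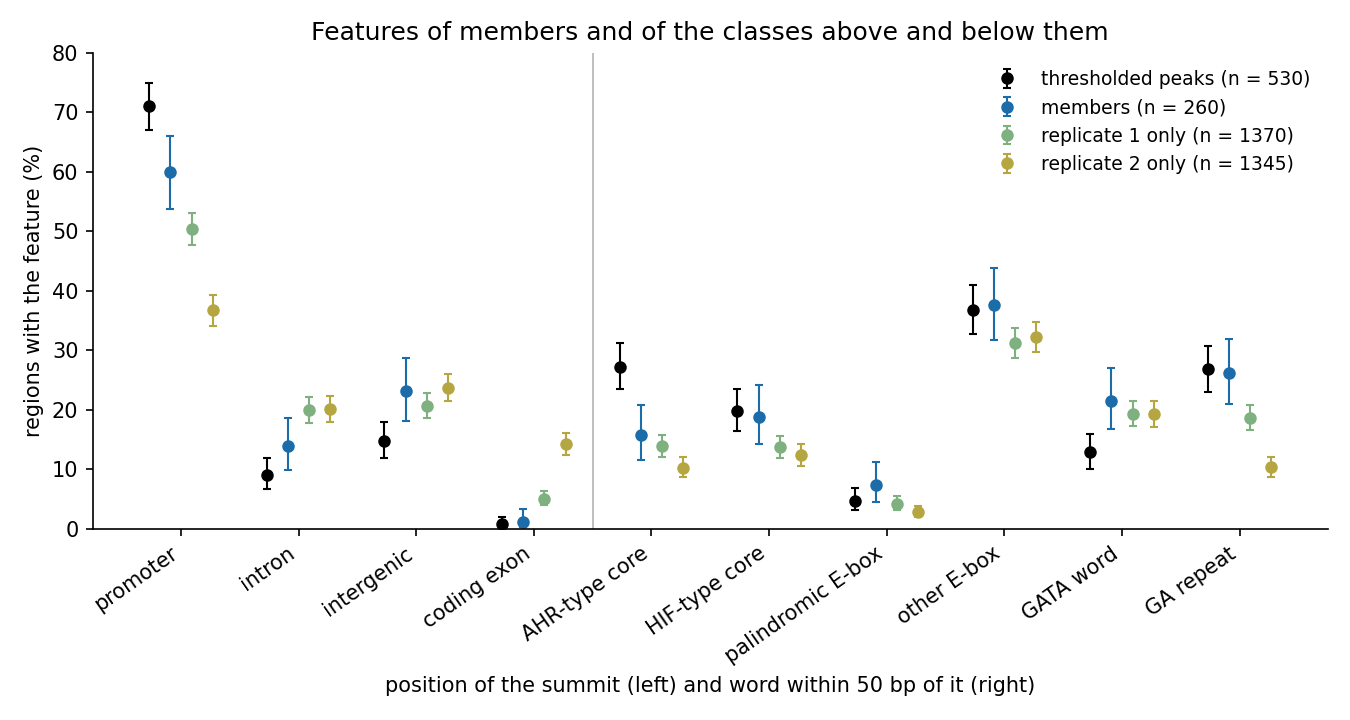
Percent of regions (vertical axis) with the summit in each kind of position (left) or with each word within 50 bp of the summit (right) for thresholded peaks, members and regions among the strongest rows of replicate 1 only or replicate 2 only. Points are shares and bars are exact 95% intervals over regions. The labels name the words described above by their factor families. The promoter share steps down from 71.1% to 60.0%, 50.4% and 36.7%.

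Of 19973 protein-coding genes, 196 had a member summit in the promoter window (0.981%), against 546 with a thresholded summit (2.73%), and 163 of the 196 had no thresholded peak there. Among genes of all kinds the figure was 309 of 46890 (0.659%). Separate members alone lay in the windows of 165 protein-coding genes, 160 of them without a thresholded peak there. The strongest member, at drap-1 (chromosome V, 9731187 to 9731502), had 18.3 in the pooled list and signals of 9.29 in replicate 1 and 12.6 in replicate 2, with its summit 25 bp upstream of the start. The member at ndub-8, a gene for a subunit of respiratory complex I, had replicate signals of 10.8 and 6.99 and lay 192 bp upstream, in the window of cup-14 as well. The member at ddx-17 (8.39 and 7.60) was shared with aip-1, the gene of an arsenite-inducible zinc finger protein, and that at F55A11.1 (12.8 and 6.26) with syx-5, a syntaxin gene. Replicate 1 had the higher signal at most of these and replicate 2 at drap-1, on lists whose scales are not known to match.

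Among the 20 strongest came also promoters of T07F10.3, C27C12.4, F17H10.2 and of rbm-39, an RNA-binding protein gene, with replicate signals of 9.97 and 6.94 and the summit 18 bp upstream. The window of ecps-1 was shared with atx-2, the ataxin-2 gene (10.6 and 6.29). The members at bet-2, a bromodomain gene, and eel-1, which encodes a HECT ubiquitin ligase, overlapped thresholded peaks, with replicate signals of 17.0 and 7.68 and of 13.3 and 13.6. Several of the 20 lay outside promoters: introns with the nearest start at Y111B2A.12 and at nadk-2, an NAD kinase gene (11.8 and 4.89), a UTR with the nearest start at ZK484.6, a non-coding gene 3057 bp upstream of sca-1, the gene of the sarcoplasmic calcium pump (14.5 and 5.45), and the intergenic sites at adh-1 (11.8 and 5.54), CC8.2 (11.8 and 5.08) and idh-1 (17.0 and 5.52). The site at idh-1 ranked 304 in replicate 1 and 1235 in replicate 2.

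Splicing and cytosolic ribosome genes gave the largest shares of genes with a member among the protein-coding lists, which were chosen with earlier results of these data known and are described by counts. Of 50 splicing genes, 7 had a member (14%, interval 5.82 to 26.7%, against 0.981% of all protein-coding genes), and 6 had a thresholded peak (12%). All 7 rested on separate members. The strongest was at sftb-6, a subunit gene of the splicing factor SF3B, at 98071 to 98386 of chromosome II, with 17.8 in the pooled list, 9.15 and 6.86 in the replicates, and a window shared with luc-7L3, a gene related to a yeast U1 snRNP protein. The Sm protein gene snr-4 had 17.8, with 10.5 and 5.55 in the replicates, and the window also held T11F9.15, an snRNA gene. The Sm gene snr-3 and the SR protein gene rsp-5 shared 1 member (14.1, with 7.79 and 5.88), so the 7 genes rested on 6 regions.

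Ribosomal protein genes had more thresholded peaks than members, as did protein-coding genes as a whole (546 against 196). On the large-subunit list 5 of 50 had a member (10%) and 19 a thresholded peak (38%), and on the small-subunit list 6 of 31 (19.4%, interval 7.45 to 37.5%) and 14 (45.2%). One member with a signal of 17.5 lay between rpl-24.1 and rps-10, 281 and 329 bp upstream of them, with replicate signals of 9.59 and 8.21. The member at rpl-21 had 16.7 (9.18 and 9.52), that at rpl-18 16.03 (11.9 and 5.67) and that at rpl-17 13.02 (6.86 and 6.39). Those at rps-17 and rps-21 had 15.3 (9.13 and 5.01) and 13.8 (8.63 and 4.77). The member at rps-14, shared with rpl-36, overlapped a thresholded peak and had 8.995, against 31.02 and 5.41 for the replicate rows it overlapped. Without members within 500 bp of thresholded peaks 8 ribosomal protein genes had one instead of 11, and 3 did when a summit counted for its nearest start alone.

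Other metabolic and protein-handling lists had 1 or 2 genes each. In glycolysis and the TCA cycle, 2 of 43 had a member: aldo-1, an aldolase gene (17.02, with 10.1 and 5.79), and hxk-3, a hexokinase gene (14.5, with 9.38 and 5.04). In the respiratory chain, ndub-8 was the only gene of 65, while 15 had a thresholded peak. Proteasome genes had 2 of 36, rpt-2 of the regulatory ATPase ring (14.4) and rpn-2 of the base (11.9). Chaperones had 1 of 60, hsp-90 (14.5, with 7.49 and 7.95), which had a thresholded peak in its windows as well. The mitochondrial ribosome had 1 of 70, mrpl-47 (16.5), and tRNA synthetases 1 of 32, ears-2 (14.5), a list without any thresholded peak. Several of these shares are near the 0.981% of all protein-coding genes, and with 1 or 2 genes the intervals are wide.

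Among regulators, 2 of 35 bHLH genes outside the PAS family had a member in the promoter window (5.71%, interval 0.6997 to 19.2%) and 2 of 269 nuclear hormone receptor genes (0.743%, interval 0.0902 to 2.66%). The receptor share was no higher than the 0.981% of all protein-coding genes. The bHLH genes were hlh-30, the worm TFEB, with a signal of 14.3 (9.60 and 4.81) and its summit 212 bp upstream, and mdl-1, which encodes a partner of the worm MAX protein, with 8.099 (6.75 and 4.76) and a thresholded peak in its windows too. Counted by nearest start, mdl-1 had 3 separate members over 9149 bp on the X chromosome, of which those 134 bp upstream and 7965 bp downstream of the start held CACGTG. The receptors were nhr-1 (17.3, with 10.97 and 5.94) and nhr-41 (16.7, with 7.43 and 8.89). No member lay in a promoter window of the 5 bHLH-PAS genes, the 13 hypoxia response genes, the 21 sulfide and cysteine genes or the 9 iron genes. A count of 0 allows up to 60%, 23.1%, 14.3% and 33.3% of these lists, so the zeros cannot be read against 0.981%. Thresholded peaks lay in the windows of 4 of the hypoxia genes and of aha-1. Of the 4, sqrd-1 is also on the sulfide and cysteine list, as its only gene with such a peak. The hypoxia list shares further genes with the sulfide and cysteine list and with the iron list, so these lists are not independent. Whether the aha-1 transgene adds to the signal at aha-1 was not tested. The member nearest to a start of the sulfide and cysteine list was 1049 bp from that of cysl-3, outside the window. At ahr-1 and hif-1 the strongest pooled region in the window had signals of 6.91 and 6.15 and was among the strongest rows of neither replicate. At the oxygen sensor gene egl-9 the strongest in the window had 7.16 and was supported in replicate 1 only, and at gss-1, a glutathione synthetase gene, 10.2 and replicate 2 only.

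Genes of small RNAs had members at shares above those of all genes for snoRNA and snRNA, and near it for tRNA and miRNA. Of 346 snoRNA genes 13 had a member (3.76%, interval 2.02 to 6.34%, against 0.659% of genes of all kinds), with D1007.20 (17.5), Y43F8C.22 (17.2), Y37E3.20 (17.2) and T23G11.12 (16.3) the strongest. D1007.20 lies by the shared region of rpl-24.1 and rps-10. Separate members accounted for 10 of the 13 snoRNA genes. Of 129 snRNA genes 5 had one (3.88%): T11F9.15 and the spliced leader genes sls-2.1, sls-2.2, sls-2.4 and sls-2.9. Only T11F9.15 and sls-2.9 were separate members, and the regions of sls-2.1, sls-2.2 and sls-2.4 overlapped thresholded peaks. Of 612 tRNA genes 8 had one (1.31%, interval 0.566 to 2.56%), and of 261 miRNA genes only cel-mir-90 (12.7, with 6.73 and 5.57). Copies of sls and tRNA genes resemble each other, and how reads were divided among them is not known.

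**Figure D5:**
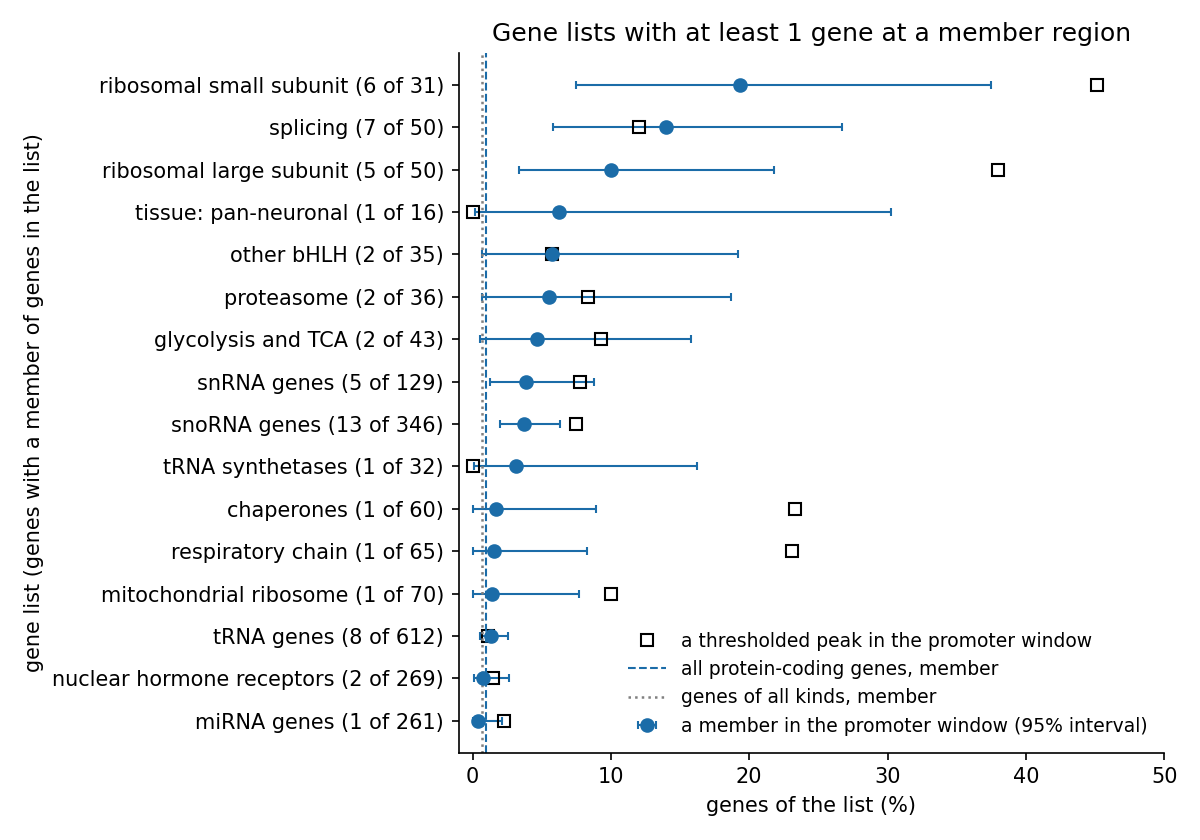
Percent of genes (horizontal axis) with a member (filled, with exact 95% interval) or a thresholded peak (open square) in the promoter window, for the 16 lists with at least 1 gene at a member. Splicing genes stand at 14% and 12%, ribosomal small-subunit genes at 19.4% and 45.2%; the lines mark 0.981% of all protein-coding genes and 0.659% of genes of all kinds.

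The tissue marker lists gave 1 gene, snb-1 of the 16 pan-neuronal genes (11.9, with 6.82 and 4.76). The lists for intestine (16 genes), hypodermis (12), body wall muscle (13), pharynx (12), oxygen-sensing neurons (10) and germline (14) had none, as did translation factors (39), the V-ATPase and autophagy (45), the secretory pathway (36), ceh homeobox genes (63), histones (81), collagens (156), cytochrome P450 (74), UGT (67), GST (49), C-type lectins (240) and neuropeptides with insulins (140). For the largest of these a count of 0 allows up to 1.25% of the list, and for the smallest up to 30%, so none of these zeros can be read against 0.981%. Translation factors and the secretory pathway had 9 genes each with thresholded peaks, 23.1% and 25% of their lists.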

How the data were processed

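ChIP-seq peak lists of 2 biological replicates were used as deposited. Per the labels, the authors made relaxed lists of peaks and background for each replicate and for the pooled replicates, and an IDR-thresholded list from them. The deposited signal value of each region has no stated scale and was used to rank regions within a list. The authors' deposited −log10 q-value reached 3.33 for 1074 pooled regions and was not used to rank. The aligner, peak caller, IDR threshold and read depth are not given in the sources used here, and the control was not analysed here. Replicate lists on ce11 held 24611 and 18195 regions. The labels call the replicates biological and give a fragment range of 150 to 350 bp.

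Positions were taken from the Ensembl release 115 annotation of WBcel235 (ce11), 1-based, and sequence from the RefSeq genome of that assembly. No coordinates were converted, and ce10 lists were used for counts alone. Outside promoter windows a summit took the first class that held it: coding exon, then UTR, then intron, then any non-coding gene or pseudogene, and otherwise intergenic. Shares were compared between classes of regions with Fisher's exact test and between summit and flank of the same region with the exact McNemar test, adjusted by Benjamini-Hochberg with a threshold of 0.05. Regions are not replicates of a condition, so p-values speak of these lists and not of variation between animals. Scripts were tested on simulated data and used Python 3.11.15, NumPy 2.4.6, SciPy 1.17.1, pandas 2.3.3 and Matplotlib 3.10.9.

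Members, tests and the 37 gene lists were chosen with earlier results of these data known, and 2 symbols, both on the sulfide and cysteine list, matched no gene. Genes named in the text are those at the 20 members of highest signal, all genes of the bHLH-PAS, hypoxia, sulfide and iron lists where a count or value is given, and up to 4 genes of every other list. Genes named beyond this rule were chosen after their values were seen: they are those given with the printed sequences and with groups of members, sls-2.9, and rpl-36 beside rps-14. Windows with over 30 bp of UTR were not printed. The tRNA genes have identifiers only and are not named. Alternatives were other numbers of replicate rows, overlaps, windows, starts, flanks and subsets.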

Additional observations from a re-analysis of the deposited data

How the results depend on the processing

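Alternatives gave 459 recomputed values. Those of the 7 summary counts and shares (members, promoter share, genes, ribosomal protein genes, words, and features against either class) moved little in 48 cases and more in 33. Of the other values, mostly single differences between classes or between summit and flank, 302 kept their direction and side of the threshold or moved little. Several alternatives also changed how many regions entered, and the cause of the changes was not tested. With 1000 rows taken from each replicate there were 87 members, 70 genes, 4 ribosomal protein genes, 1 of 6 words past the threshold against the flank, and 0 features past it against either class. Differences from regions of 1 replicate then changed sign for introns (1.71 percentage points), ACGTG (-2.51) and CACGTG (-0.995). With 3000 rows there were 411 members and 309 genes. With 50% of the region covered, 172 members and 1 feature against thresholded peaks remained past the threshold. The 130 members of higher signal gave 116 genes, 6 ribosomal protein genes, 2 words and 0 features against thresholded peaks. With 1 replicate alone there were 1605 to 1630 members, 40.5 to 51.9% of them in promoters, 718 to 984 genes, 15 to 24 ribosomal protein genes, 4 words, and 8 features against thresholded peaks in either case; the comparison with regions of 1 replicate then cannot be made. The promoter share was 47.3% with 500 bp upstream and 100 bp downstream, 74.2% with 2000 and 500 bp, and 52.7% with outermost starts; the wider window left 2 features past the threshold against thresholded peaks. Nearest starts only gave 114 genes and 3 ribosomal protein genes. A summit window of 25 bp to either side left 3 features against regions of 1 replicate. Promoter members alone gave 3 words and the others 2. The ce10 lists, with 553 thresholded peaks, gave 250 members. Restriction to the 193 separate members, chosen after seeing the data, gave 4 words, and 4 and 6 features against the classes. Both feature counts were the same as with all members. List counts other than ribosomal, splicing, snoRNA and tRNA were not recomputed. No paired analysis was possible because there was 1 group. Read depth is unknown, so no interval for counting error could be given.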

Other observations

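A longer word was noticed when the printed windows were read: CTGCGTCTC, sought on both strands within 50 bp of the summit. It was chosen after the sequences were seen, so its counts are a description with no test. It stood at 20 of 260 member summits (7.69%) and in 0 of their flanks. All 20 were among the 193 separate members (10.4%), and none of the 67 members beside a stronger region held it. The share was 12.3% in thresholded peaks, 5.26% and 2.53% in regions among the strongest rows of replicate 1 or replicate 2 only, and 1.32% over all 30000 pooled regions. Of the 20, 15 were in promoter windows, 14 also held GAGAGA, a word its TCTC end can run into, and 5 also held GCGTG or ACGTG. Shown for the word are windows at C27C12.4, at nhr-1, a nuclear hormone receptor gene, and at ogt-1, the gene of the O-GlcNAc transferase, printed from the RefSeq genome on the plus strand of WBcel235, with the word in capitals on either strand.
C27C12.4 (chrX:14853964-14854064): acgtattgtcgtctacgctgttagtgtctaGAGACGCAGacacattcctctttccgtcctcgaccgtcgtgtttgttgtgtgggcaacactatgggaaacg
nhr-1 (chrX:17513685-17513785): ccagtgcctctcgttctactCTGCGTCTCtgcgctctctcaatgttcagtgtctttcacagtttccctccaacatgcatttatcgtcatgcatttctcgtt
ogt-1 (chrIII:7153997-7154097): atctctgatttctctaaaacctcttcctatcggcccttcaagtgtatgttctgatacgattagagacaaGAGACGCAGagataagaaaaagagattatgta

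A few genes were nearest to several members. Of 223 genes that were nearest to a member, 7 were nearest to 2 or more separate members and 3 to 3 or more: CC8.2, ges-1 and mdl-1. At CC8.2 on chromosome IV, 4 separate members and 1 beside a stronger one spanned 8125 bp, at pooled signals from 4.97 to 18.01. At ges-1, a gut carboxylesterase gene, 3 separate members spanned 1926 bp upstream of the start, with pooled signals of 16.8, 7.57 and 6.81, and each was 511 to 1346 bp from a thresholded peak. These genes were singled out after their values were seen, and no test was made. The same count was not taken for other classes of regions, so whether members cluster more than those is not known.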
